A study of Mus musculus with 8 samples.

Results

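The tumour suppressor gene Trp53 and 9 genes that p53, its protein, is known to regulate were followed through sorted mouse prostate epithelium. The 10 genes are Trp53, Mdm2, Eda2r, Bbc3, Bax, Sesn2, Zmat3, Ccng1, Trp53inp1 and Phlda3. They were found by gene symbol among 55335 Ensembl identifiers, and all 10 had 1 matching row. The libraries came from EpCAM+, CD24A+ prostate cells with low CD49F, as the design text describes the sort. PPK mice carried Kmt2cPC-/- on top of the genotype labelled PP, so every group, the controls included, shares the PP background, and no group lacks it. Each genotype was sampled after sham treatment at 3.5 months of age and under ADT, the usual short form of androgen deprivation therapy, at 6.5 months. There are 2 libraries, A and B, in each of the 4 groups (PP sham, PPK sham, PP ADT and PPK ADT). The labels do not say which promoter drives the deletions, how androgen was withdrawn, or whether A and B are separate animals. Treatment and age changed together, so each difference between ADT and sham below is one of ADT with age.

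The p53 protein is a transcription factor held low by Mdm2, a ubiquitin ligase that is itself a p53 target, which closes a negative feedback loop. DNA damage, oncogene signalling or ribosome stress frees p53 from Mdm2, and p53 then binds pairs of a short palindromic motif near its targets. Those targets stop the cell cycle, repair DNA, adjust metabolism or start apoptosis. The level of Trp53 RNA is not a measure of p53 activity, because the protein is controlled mainly by its stability.

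Stretches of the start regions that match the DNA element of p53 are shown first, because binding there is how p53 is known to reach its targets. They come from RefSeq windows on GRCm38.p6, each reaching from 250 bases before a transcription start to 50 bases after it. Of the 10 genes 8 had a window, and Bbc3 had 3. Zmat3 and Trp53inp1 had none in the table. The search used the 10-base consensus of p53 binding, which reads the same on both strands. A response element was counted as 2 copies next to each other or 1 base apart, with at most 3 mismatches and none at the central C and G. Such elements were found for 4 genes (Ccng1, Bax, Bbc3 and Trp53), and a single exact copy alone for Mdm2. Over all 32851 windows in the table, 2.82% held an element and 8.36% an exact copy. Capitals mark the matched bases, 5′ to 3′ on the strand of the gene.
Ccng1: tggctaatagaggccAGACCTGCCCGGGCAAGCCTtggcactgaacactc
Bax: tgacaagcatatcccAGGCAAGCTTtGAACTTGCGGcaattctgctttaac
Bbc3: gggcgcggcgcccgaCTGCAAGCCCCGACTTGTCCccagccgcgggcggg
Trp53: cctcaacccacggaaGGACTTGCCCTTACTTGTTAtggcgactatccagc
Mdm2: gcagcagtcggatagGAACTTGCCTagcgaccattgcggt

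The Ccng1 stretch (chr11:40755447-40755496, minus strand) has 1 mismatch to the consensus and lies between annotated genes, 185 bases before the start. The Bax stretch (chr7:45467064-45467114, minus strand) has 2 mismatches and a spacer of 1 base, in an intron of the overlapping gene model Gm45808. The Bbc3 stretch (chr7:16309471-16309520, plus strand) has 3 mismatches and lies in an intron of the longer Bbc3 model of GENCODE M21. The Trp53 stretch (chr11:69580269-69580318, plus strand) has 3 mismatches, and it and the Mdm2 stretch (chr10:117710920-117710959, minus strand) lie between genes. Phlda3, Sesn2 and Eda2r showed neither form, which says only that these letters are not in these windows. The well-known p53 element of Mdm2 lies in its first intron and is outside the window. A match is a description of the letters and not a measured binding site.

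Values are FPKM, which are scaled by gene length and by library size, so levels of different genes can be set side by side. Summed FPKM ran from 284015 to 333977 per library, and no counts are in the tables, so the depth is unknown. Kmt2c ran from 13.3 to 13.9 FPKM in PP sham and 8.15 to 8.67 in PPK sham, and from 9.33 to 10.3 in PP ADT and 6.36 to 6.60 in PPK ADT. It was thus lower and not absent in PPK. Values per gene cannot show which exons were read, so whether exons outside the deleted part add to this level was not tested. The luminal keratin genes Krt8 and Krt18 were at 286 FPKM or more in every library. Pbsn, which marks androgen-supplied luminal cells, was listed at 0 in all ADT libraries. Each fold change is on the log2(FPKM + 1) scale, where shifts of low genes look smaller than they are, and is given ± its standard error (SE). A gene is called where the limma p, adjusted by Benjamini-Hochberg over the 14000 genes tested, is under 0.05. The spread behind these p-values is that between libraries A and B, which may be technical.

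**Figure D1:**
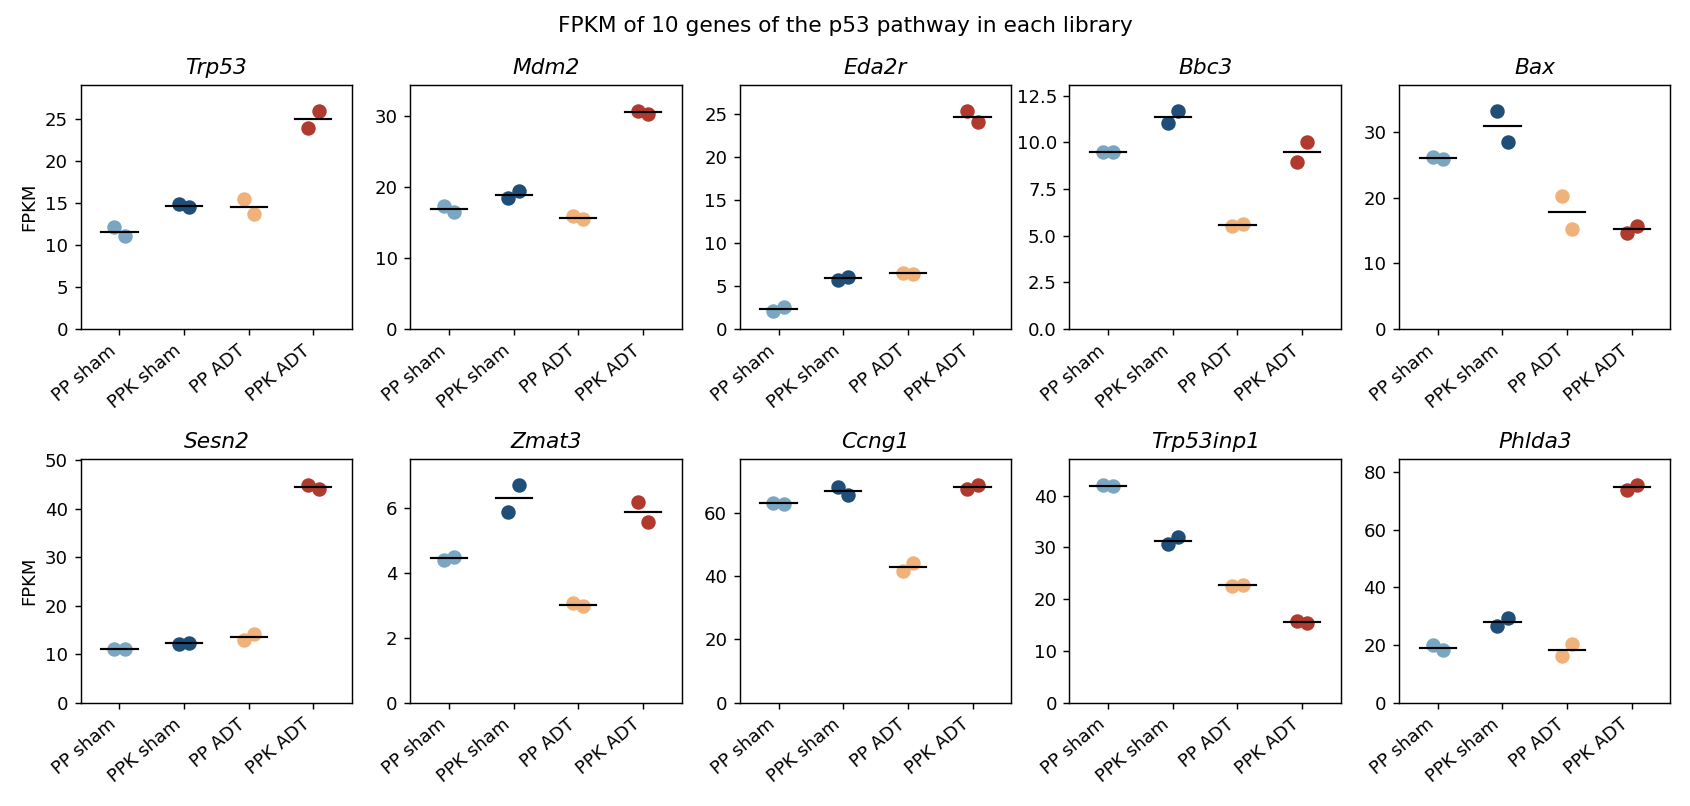
FPKM of each of the 10 genes (vertical axes, each starting at 0) in PP sham, PPK sham, PP ADT and PPK ADT; points are the 2 libraries of a group and the line is their mean. PPK ADT has the highest mean for Trp53, Mdm2, Eda2r, Sesn2, Phlda3 and Ccng1 and the lowest for Bax and Trp53inp1. For Ccng1 it overlaps PPK sham, and for Bax it overlaps PP ADT.

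All 10 genes were at 1 FPKM or more in each of the 8 libraries, so none was tested because of 1 high group. In PP sham the cyclin gene Ccng1 was the most abundant at a mean of 63.0 FPKM, followed by Trp53inp1 at 41.9 and Bax at 26.1. Eda2r was the lowest there at 2.30 FPKM. The order differed in PPK ADT, where Phlda3 led at 74.7 FPKM, ahead of Ccng1 at 68.3 and Sesn2 at 44.5, and where Eda2r reached 24.6. Summed over the 10 genes, the level was 204 to 208 FPKM in PP sham, 225.9 to 226.5 in PPK sham, 160 to 161 in PP ADT and 312 to 315 in PPK ADT. The ratio of the highest to the lowest library ranged from 1.66 for Ccng1 to 12.3 for Eda2r. PPK ADT had the highest mean for 6 of the 10 genes, and PP ADT the lowest mean for 5. Shares of all genes with these orders were not computed, so the 2 counts only describe the members. Summed FPKM of all genes was also highest in PPK ADT (329204 and 333977) and lowest in PP ADT (284015 and 286111).

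Trp53 (ENSMUSG00000059552, chromosome 11, 69580359 to 69591873, GRCm38) had 12.1 and 11.1 FPKM for libraries A and B of PP sham, and 14.8 and 14.5 for those of PPK sham. Under ADT the PP pair had 15.4 and 13.6 FPKM, while the PPK pair had 23.9 and 25.9. PP sham was lowest and PPK ADT highest, and the PP ADT and PPK sham libraries between them overlapped. The log2 fold change of PPK over PP was 0.31 ± 0.076 under sham (limma adjusted p = 0.0229) and 0.74 ± 0.076 under ADT (0.000203). ADT with age came with a rise of 0.30 ± 0.076 in PP (limma adjusted p = 0.0182) and of 0.73 ± 0.076 in PPK (0.000202). The sham difference between genotypes was lost without PP sham B, PPK sham A or PPK sham B (limma adjusted p = 0.0742 to 0.116), and it passed without PP sham A. It was lost as well with no filter on low values (limma adjusted p = 0.0534). The rise in PP was lost without PP sham B (limma adjusted p = 0.0947), without PP ADT A (0.0883), and with only the compared groups fitted (0.0524). The pseudogene Trp53-ps, whose reads FPKM values may share with Trp53, was at no more than 0.272 FPKM.

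Mdm2 (ENSMUSG00000020184, chromosome 10, 117688875 to 117710758), the ubiquitin ligase that holds p53 low, had 17.3 and 16.5 FPKM for PP sham, while PPK sham had 18.4 and 19.3. The PP ADT libraries read 15.9 and 15.5 FPKM and the PPK ADT libraries 30.7 and 30.3. No libraries of neighbouring groups overlapped, but the other 3 groups stayed close and PPK ADT stood far above them. In ADT mice PPK exceeded PP by a log2 fold change of 0.92 ± 0.046 (limma adjusted p = 6.73e-06). In PPK mice the rise of Mdm2 with ADT and age was 0.66 ± 0.046 (limma adjusted p = 2.77e-05). Mdm2 was not called between genotypes in sham mice (0.15 ± 0.046, limma adjusted p = 0.0515) or between treatments in PP (-0.10 ± 0.046, limma adjusted p = 0.117). The sham difference passed under quantile normalization (limma adjusted p = 0.0336) and among genes with a mean of at least 5 FPKM (0.0403).

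Ccng1 (ENSMUSG00000020326, chromosome 11, 40748552 to 40755311) encodes cyclin G1, which brings a phosphatase to Mdm2 and feeds back on p53. Its libraries read 63.1 and 62.9 FPKM in PP sham, 68.2 and 65.8 in PPK sham, 41.5 and 44.2 in PP ADT, and 67.7 and 68.9 in PPK ADT. Only PP ADT stood clearly apart, on the low side, and the PPK sham and PPK ADT libraries overlapped. Ccng1 fell by 0.55 ± 0.040 on the log2 scale with ADT and age in PP (limma adjusted p = 7.53e-05). Its difference in PPK, 0.03 ± 0.040 higher under ADT, was not called (limma adjusted p = 0.565). In ADT mice it was higher in PPK by 0.66 ± 0.040 (limma adjusted p = 1.56e-05). In sham mice the genotypes differed by 0.09 ± 0.040, which was not called (limma adjusted p = 0.161).

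Of the genes tied to cell death, Eda2r (ENSMUSG00000034457, chromosome X, 97333840 to 97377216), a receptor of the tumour necrosis factor family, changed in all 4 pairwise comparisons. The PP sham pair had 2.05 and 2.55 FPKM, the PPK sham pair 5.73 and 5.99, the PP ADT pair 6.54 and 6.38, and the PPK ADT pair 25.3 and 24.0. Each group was apart from the next, with PPK sham and PP ADT close to each other. The log2 fold change of PPK over PP was 1.06 ± 0.083 under sham (limma adjusted p = 0.000234) and 1.78 ± 0.083 under ADT (4.94e-06). With ADT and age Eda2r rose by 1.18 ± 0.083 in PP (limma adjusted p = 6.53e-05) and by 1.90 ± 0.083 in PPK (3.19e-06). These correspond to ratios of mean FPKM of 2.54 and 3.81 between genotypes and of 2.80 and 4.20 between treatments.

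Phlda3 (ENSMUSG00000041801, chromosome 1, 135766119 to 135769136) encodes a small protein with a pleckstrin homology domain that competes with Akt for membrane lipids. The PP sham pair had 19.98 and 18.1 FPKM, the PPK sham pair 26.5 and 29.3, the PP ADT pair 16.0 and 20.4, and the PPK ADT pair 73.8 and 75.5. The PP sham and PP ADT libraries overlapped, and both PPK groups stood above them. The log2 fold change of PPK over PP was 0.53 ± 0.11 under sham (limma adjusted p = 0.0139) and 1.99 ± 0.11 under ADT (1.13e-05). In PPK the rise with ADT and age was 1.39 ± 0.11 (limma adjusted p = 5.71e-05), whereas in PP the difference was -0.07 ± 0.11 and not called (limma adjusted p = 0.646). The sham difference of Phlda3 was lost without PP sham B (limma adjusted p = 0.0771) or PPK sham B (0.0762).

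Bbc3 (ENSMUSG00000002083, chromosome 7, 16308393 to 16318205) encodes Puma, a BH3-only protein that frees Bax-type killers. FPKM values were 9.46 and 9.47 for PP sham, 11.0 and 11.7 for PPK sham, 5.51 and 5.60 for PP ADT, and 8.94 and 10.04 for PPK ADT. PP ADT was lowest and PPK sham highest, and the PPK ADT libraries lay on either side of those of PP sham. The log2 fold change of PPK over PP was 0.24 ± 0.066 under sham (limma adjusted p = 0.0385) and 0.68 ± 0.066 under ADT (0.000169). With ADT and age Bbc3 fell by 0.67 ± 0.066 in PP (limma adjusted p = 0.000314) and by 0.24 ± 0.066 in PPK (0.0193). The sham difference of Bbc3 was lost without any 1 of the 4 sham or the 2 PP ADT libraries (limma adjusted p = 0.061 to 0.155) and with no filter (0.0644). The fall in PPK was lost without PPK sham B (limma adjusted p = 0.0919), without PPK ADT A (0.0899), and with only the compared groups fitted (0.0584).

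Bax (ENSMUSG00000003873, chromosome 7, 45461697 to 45466898) encodes the protein that opens the outer mitochondrial membrane, and it went down with ADT and age. Its level for PP sham was 26.2 and 26.0 FPKM, with 33.2 and 28.5 for PPK sham, 20.3 and 15.3 for PP ADT, and 14.6 and 15.7 for PPK ADT. Both ADT groups lay below both sham groups, and the ADT groups overlapped each other. Bax fell by 0.54 ± 0.13 on the log2 scale in PP (limma adjusted p = 0.0164) and by 0.97 ± 0.13 in PPK (0.000728). The genotypes differed by 0.23 ± 0.13 under sham (limma adjusted p = 0.249) and by -0.20 ± 0.13 under ADT (0.225), neither of which was called. The PP ADT pair of Bax was wide: without PP ADT B the ADT difference between genotypes became -0.40 and passed (limma adjusted p = 0.0208). The fall in PP was lost without PP sham A (limma adjusted p = 0.0684) or PP sham B (0.0643).

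Among the genes of metabolism and RNA control, Sesn2 (ENSMUSG00000028893, chromosome 4, 132492032 to 132510501) encodes sestrin 2, which restrains mTORC1 when leucine is short. It is also known as a target of Atf4. Both PP sham libraries had 11.1 FPKM of Sesn2, the PPK sham pair had 12.1 and 12.3, the PP ADT pair 12.9 and 14.1, and the PPK ADT pair 44.9 and 44.1. The first 3 groups lay within a narrow band and PPK ADT was far above it. In ADT mice PPK exceeded PP by a log2 fold change of 1.65 ± 0.051 (limma adjusted p = 7.87e-07), a ratio of means of 3.30. Sesn2 rose with ADT and age by 0.26 ± 0.051 in PP (limma adjusted p = 0.00676) and by 1.78 ± 0.051 in PPK (4.55e-07). In sham mice the genotypes differed by 0.13 ± 0.051, which was not called (limma adjusted p = 0.11). A transcript model, Gm12981, overlaps Sesn2 on the same strand and was at no more than 1.24 FPKM.

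Trp53inp1 (ENSMUSG00000028211, chromosome 4, 11156431 to 11174379) encodes a stress protein that acts in p53 phosphorylation and autophagy, and it went down in all 4 pairwise comparisons. Its libraries read 42.1 and 41.8 FPKM in PP sham, 30.6 and 31.9 in PPK sham, 22.6 and 22.8 in PP ADT, and 15.9 and 15.4 in PPK ADT. Each group was apart from the next. The fall in PPK against PP was 0.41 ± 0.038 on the log2 scale under sham (limma adjusted p = 0.000465) and 0.51 ± 0.038 under ADT (4.42e-05). With ADT and age Trp53inp1 fell by 0.86 ± 0.038 in PP (limma adjusted p = 8.53e-06) and by 0.96 ± 0.038 in PPK (2.12e-06).

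Zmat3 (ENSMUSG00000027663, chromosome 3, 32334792 to 32366014) encodes a zinc finger protein that binds RNA and guides splicing. Its level for PP sham was 4.40 and 4.50 FPKM, with 5.88 and 6.71 for PPK sham, 3.06 and 2.97 for PP ADT, and 6.18 and 5.56 for PPK ADT. The PPK groups overlapped and lay above both PP groups. The log2 fold change of PPK over PP was 0.42 ± 0.083 under sham (limma adjusted p = 0.011) and 0.77 ± 0.083 under ADT (0.00026). With ADT and age Zmat3 fell by 0.44 ± 0.083 in PP (limma adjusted p = 0.00587). The PPK difference, -0.09 ± 0.083, was not called (limma adjusted p = 0.399). The sham difference of Zmat3 was lost without PP sham A (limma adjusted p = 0.0587) or PPK sham B (0.0537).

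**Figure D2:**
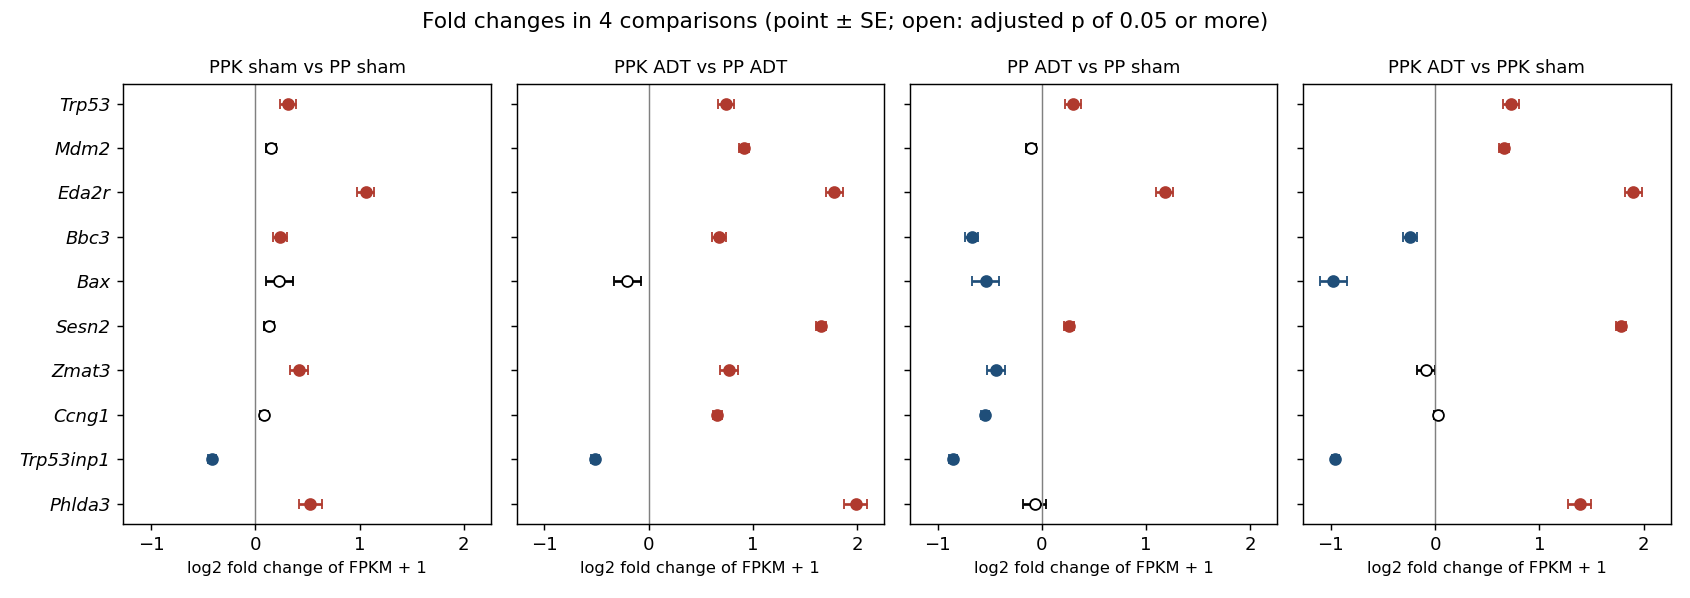
Log2 fold changes of FPKM + 1 (horizontal axes) of the 10 genes in 4 pairwise comparisons, as points with SE bars; red points were called higher, blue points lower, and open points were not called. In ADT mice 8 genes lie to the right for PPK against PP, and Trp53inp1 lies to the left in all 4 panels.

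Read as a group in sham mice, 5 of the 10 genes were called higher in PPK than in PP (Trp53, Eda2r, Bbc3, Zmat3 and Phlda3) and 1 was called lower (Trp53inp1). Of all genes tested, 28.6% were called in that comparison, 13.7% higher and 14.9% lower. The members' median log2 fold change was 0.23, and that of all genes was -0.02. The 10 genes and the lists below were chosen with earlier results of these data known. Their counts and medians beside those of all genes are therefore descriptions only. Leaving out any 1 sham library lowered this count of members and also the count of all genes called, so both rest on few libraries.

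In ADT mice 8 of the 10 were higher in PPK and Trp53inp1 was lower, which left Bax uncalled. The background was wide: 59.6% of all genes were called, 32.5% higher and 27.1% lower. That lean turned under median-of-ratios scaling, with 3963 genes higher and 4418 lower. The members' median was 0.76 against 0.05 for all genes. In PP mice ADT with age came with 3 higher members (Trp53, Eda2r and Sesn2) and 5 lower (Bbc3, Bax, Zmat3, Ccng1 and Trp53inp1). There 44.2% of all genes were called, 19.0% higher and 25.1% lower, and the medians were -0.27 for the members and -0.07 for all genes. This lean turned as well under median-of-ratios scaling (3191 higher and 2854 lower). In PPK mice 5 members were higher (Trp53, Mdm2, Eda2r, Sesn2 and Phlda3) and 3 lower (Bbc3, Bax and Trp53inp1). Of all genes 62.6% were called in PPK, 32.0% higher and 30.7% lower, with medians of 0.35 for the members and 8.57e-05 for all genes. The comparisons share libraries, so their counts are not independent of each other. Here too the choice of the 10 genes with earlier results known makes counts and medians descriptions only.

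**Figure D3:**
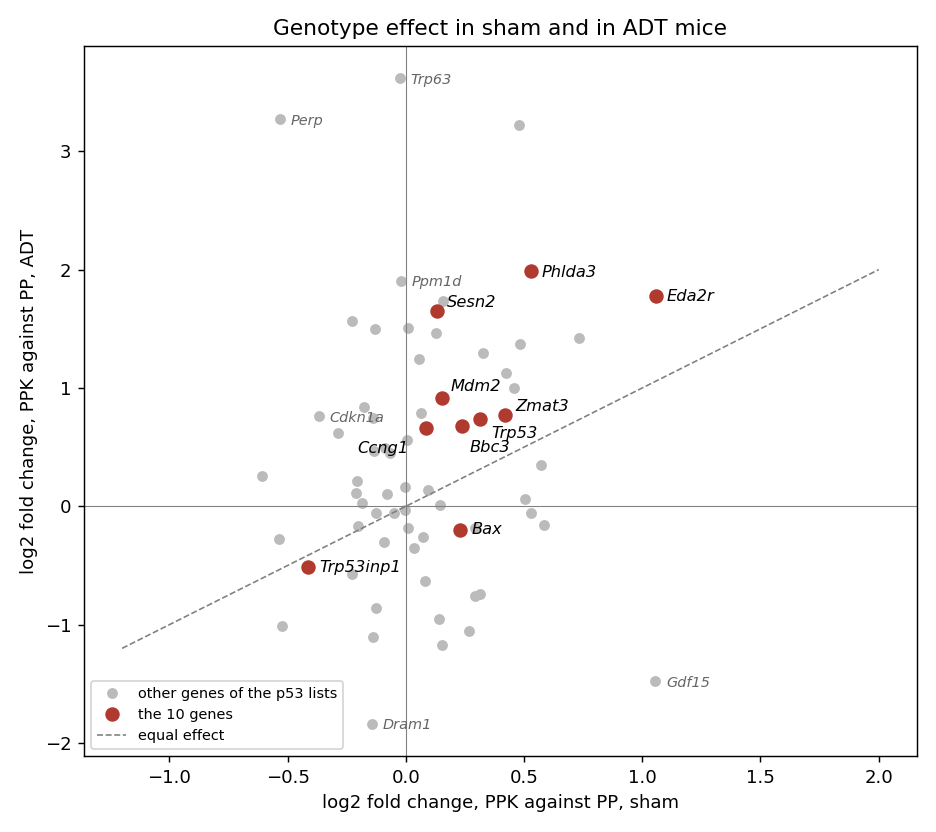
Log2 fold change of PPK against PP in sham mice (horizontal axis) and in ADT mice (vertical axis) for the 10 genes (red) and the tested genes of the other p53 lists (grey); on the dashed line both effects are equal. Of the 10 genes, Sesn2 and Phlda3 lie farthest above the line and Bax and Trp53inp1 lie below it.

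The genotype effect of 8 members differed between ADT and sham mice, and all 8 differences were positive. Of all genes 52.8% passed this test of the difference, 30.0% with a positive and 22.8% with a negative sign. Under median-of-ratios scaling the signs were even, with 3625 positive and 3632 negative. Sesn2 showed the widest gap at 1.52 ± 0.072 (limma adjusted p = 8.07e-06), followed by Phlda3 at 1.46 ± 0.16 (limma adjusted p = 0.000352). Mdm2 (0.77 ± 0.065, limma adjusted p = 0.000113), Eda2r (0.72 ± 0.12, limma adjusted p = 0.00242) and Ccng1 (0.57 ± 0.056, limma adjusted p = 0.000223) came next. Bbc3 had 0.44 ± 0.094 (limma adjusted p = 0.00806), Trp53 0.43 ± 0.11 (limma adjusted p = 0.0151) and Zmat3 0.35 ± 0.12 (limma adjusted p = 0.043). The Trp53 difference was lost without PPK ADT B (limma adjusted p = 0.0524). That of Zmat3 was lost without any 1 of 6 libraries, PPK sham B and PPK ADT B being the exceptions (limma adjusted p = 0.0819 to 0.124), with no filter (0.0728) and under both other scalings (0.0856 and 0.088). Bax (-0.43 ± 0.19, limma adjusted p = 0.0933) and Trp53inp1 (-0.10 ± 0.054, limma adjusted p = 0.169) were not called. The difference of Bax passed without PP ADT B at -0.63 (limma adjusted p = 0.0118), and that of Trp53inp1 under median-of-ratios scaling at -0.19 (limma adjusted p = 0.0201).

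The wider p53 pathway was read from 6 further lists with 65 genes, of which 58 were tested. Between genotypes in ADT mice, 26 of the 58 were higher in PPK and 14 lower, beside the 59.6% called among all genes. In sham mice 14 were higher and 4 lower, or 31.0% called beside 28.6% of all genes. In the lists of other p53 targets alone (39 tested), 17 were higher and 12 lower in PPK ADT than in PP ADT.

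Of 18 regulators of p53, limma called 0 between genotypes in sham mice, where 8 had an unadjusted p under 0.05, and 8 were higher and 2 lower in PPK ADT than in PP ADT. The shares of all genes called were 28.6% and 59.6%. Ppm1d, the phosphatase Wip1 that switches off the p53 response, stood at 24.5 FPKM in PPK ADT against 5.81 in PP ADT (1.90 ± 0.085, limma adjusted p = 4.02e-06). Pml, which encodes the organiser of nuclear bodies, was lower at 4.06 against 9.56 FPKM (-1.06 ± 0.11, limma adjusted p = 0.000187). Mdm4, the partner of Mdm2, was not called between genotypes in ADT mice (11.3 against 13.04 FPKM, limma adjusted p = 0.0546). Cdkn2a, whose Arf product blocks Mdm2, rose with ADT and age from 4.04 to 10.8 FPKM in PP (1.24 ± 0.20, limma adjusted p = 0.00305) and from 2.36 to 13.2 in PPK (2.11 ± 0.20, limma adjusted p = 0.000133). A value per gene cannot part Arf from the p16 product of Cdkn2a. Chek2, a kinase of the DNA damage response, fell in PP from 5.09 to 2.75 FPKM (-0.70 ± 0.11, limma adjusted p = 0.00315).

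The relatives of Trp53 bind similar DNA elements. Trp63, which encodes the basal cell factor p63, was at 0.376 FPKM in PP sham, 0.353 in PPK sham, 0.977 in PP ADT and 23.3 in PPK ADT. Its log2 fold change between genotypes in ADT mice was 3.62 ± 0.081 (limma adjusted p = 2.08e-07). Trp73 did not pass the filter and was at a mean of 0.233 FPKM in PPK ADT.

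Among other targets that stop the cell cycle, 4 of 7 tested were higher and 3 lower in PPK ADT than in PP ADT, where 59.6% of all genes were called. Cdkn1a, the gene of the p21 inhibitor, stood at 62.8 FPKM in PP sham, 48.4 in PPK sham, 64.0 in PP ADT and 109 in PPK ADT. It was thus lower in PPK in sham mice (-0.37 ± 0.045, limma adjusted p = 0.0015) and higher in PPK in ADT mice (0.76 ± 0.045, limma adjusted p = 1.47e-05). Sfn, the epithelial 14-3-3 sigma gene, was higher in PPK ADT (1489 against 522 FPKM, 1.51 ± 0.021), and Gadd45a was lower (31.0 against 71.1, -1.17 ± 0.057). In sham mice Plk3 was higher in PPK (51.3 against 37.1 FPKM, 0.46 ± 0.077) and Btg2, an antiproliferative gene, was lower (561 against 807, -0.52 ± 0.022).

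Of the cell death targets, 4 of 11 tested were higher and 1 lower in PPK ADT than in PP ADT, where 59.6% of all genes were called. Perp, a desmosome gene that p63 also drives, stood at 646 against 66.1 FPKM (3.27 ± 0.040), and in sham mice it was lower in PPK (58.9 against 85.7, -0.53 ± 0.040). Dram1, an autophagy gene, rose in PP with ADT and age from 5.05 to 35.2 FPKM (2.58 ± 0.056) and was lower in PPK ADT at 9.11 (-1.84 ± 0.056 against PP ADT). Aen, a nuclease gene, was higher in PPK sham than in PP sham (10.4 against 6.88 FPKM, 0.53 ± 0.12). Ei24 fell in PP with ADT and age (12.9 against 17.2, -0.39 ± 0.062). Of 9 DNA repair targets, 4 were higher and 4 lower in PPK ADT than in PP ADT, a share to be read beside the same 59.6%. Among those averaging 5 FPKM or more in the higher group, Pcna (26.9 against 18.0 FPKM, 0.56 ± 0.078) and Polk (4.99 against 9.11, -0.75 ± 0.079) changed most in each direction. Of 12 tested targets in metabolism and secretion, 5 were higher and 4 lower, again beside 59.6% of all genes. Ddit4, another brake on mTORC1, was higher in PPK ADT (155 against 45.7 FPKM, 1.74 ± 0.043). Gdf15, a stress cytokine gene, was higher in PPK in sham mice (9.38 against 4.01 FPKM, 1.05 ± 0.10) and lower in PPK in ADT mice (1.81 against 6.83, -1.48 ± 0.10). Ak1 rose in PPK with ADT and age from 1.36 to 10.3 FPKM (2.25 ± 0.15). Its mean in PP went from 0.434 to 3.22 FPKM, a ratio close to that in PPK.

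**Figure D4:**
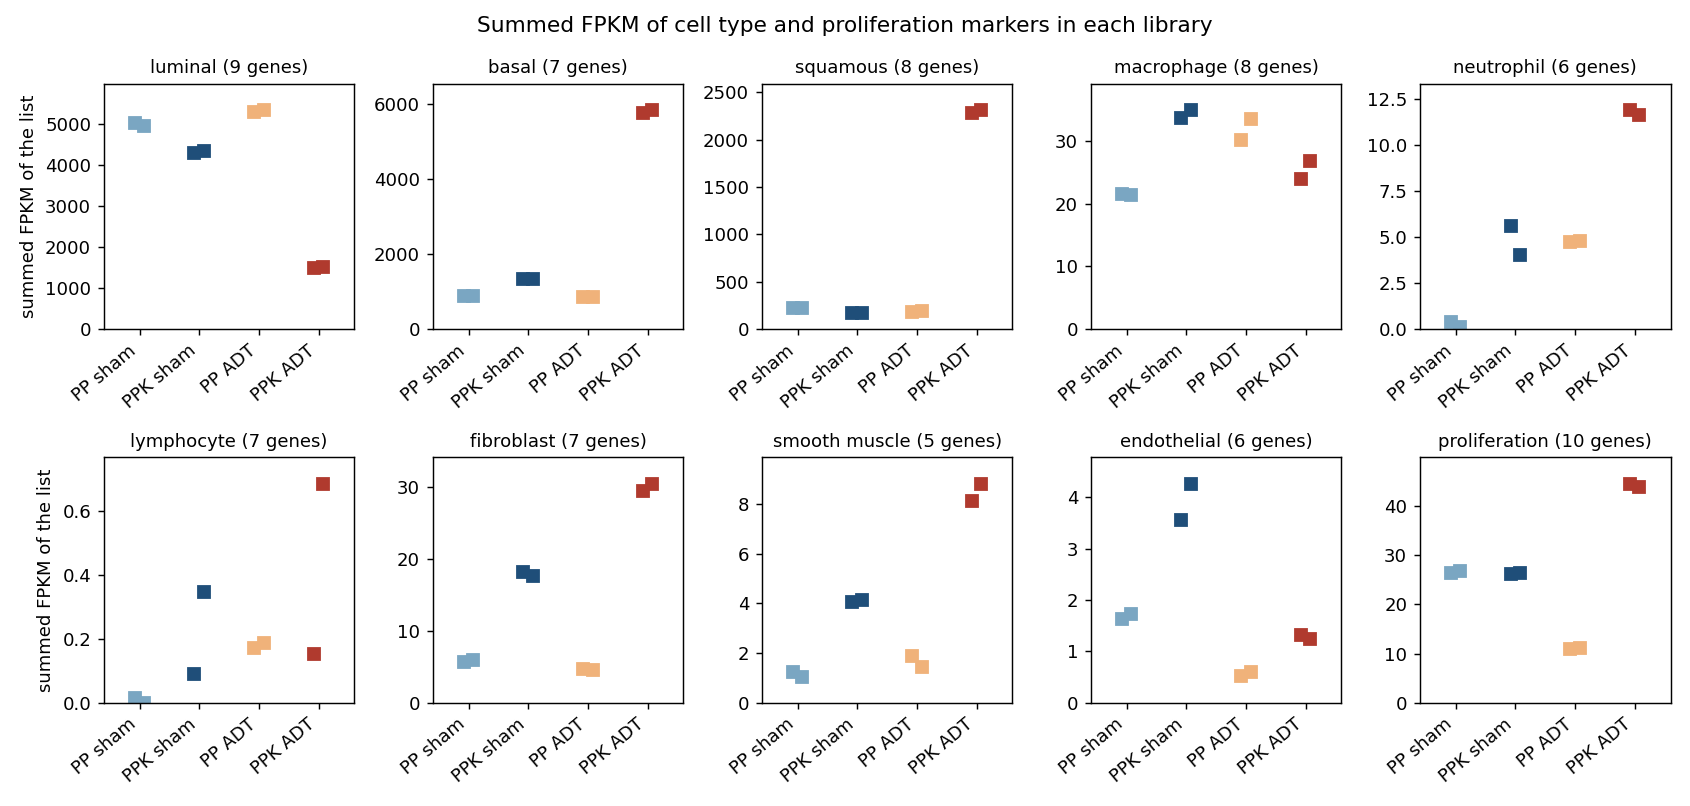
Summed FPKM of marker lists (vertical axes, each starting at 0) in the 2 libraries of each group. The basal, squamous and proliferation sums are highest in the PPK ADT libraries, and the luminal sum is lowest there.

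Cell type markers also differed between PP ADT and PPK ADT. The summed luminal level (9 genes) was 5287 to 5339 FPKM in PP ADT and 1491 to 1513 in PPK ADT, and 6 of the 9 were lower there. The basal sum (7 genes) was 844 to 854 FPKM in PP ADT and 5774 to 5843 in PPK ADT, with 6 of 7 higher. Squamous markers, 7 tested of 8, were all higher, and their sum went from 183 to 185 up to 2286 to 2314 FPKM. Proliferation markers (10 genes) summed to 10.9 to 11.1 FPKM in PP ADT and 44.0 to 44.6 in PPK ADT, and all 10 were higher. Of all genes, 59.6% were called between these groups, 32.5% higher and 27.1% lower. In sham mice the marker sums of the genotypes lay nearer to each other, at 872 to 878 and 1329 to 1341 FPKM for basal markers in PP and PPK. That basal gap was mostly Krt15 (809 FPKM in PP and 1273 in PPK), while Krt5 was lower in PPK (21.5 against 28.5). Of the 7 basal markers, 2 were called higher in PPK sham and 3 lower, beside 13.7% and 14.9% of all genes. The part of these shifts in the differences of the 10 genes was not tested. In bulk RNA, a change in the number of cells of a type and a change in RNA per cell cannot be told apart.

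Markers of other cells stayed low beside them. The macrophage sum (8 genes) was 21.4 to 21.6 FPKM in PP sham, 33.8 to 35.0 in PPK sham, 30.2 to 33.6 in PP ADT and 24.0 to 26.9 in PPK ADT, most of it Cd68. Of its 4 tested genes, 3 were higher in PPK in sham mice and Mrc1 was lower (4.32 against 7.51 FPKM). In that comparison 28.6% of all genes were called. The fibroblast sum (7 genes) was 5.60 to 5.999, 17.7 to 18.2, 4.59 to 4.66 and 29.5 to 30.5 FPKM in the same order. Of the 5 fibroblast markers tested, PPK exceeded PP for 5 under ADT and for 4 under sham, beside 32.5% and 13.7% of all genes called higher. The part of this in the results above was not tested. Smooth muscle markers summed to at most 8.83 FPKM, endothelial markers to at most 4.27, neutrophil markers to at most 11.9, neuroendocrine markers to at most 8.84 and lymphocyte markers to at most 0.687. Of the neutrophil markers, Mpo and Elane were at 0 in both libraries of PP sham, PPK sham and PPK ADT. S100a9 averaged 0.126 FPKM in PP sham and 9.38 in PPK ADT, and Csf3r had a mean of at most 0.668 in any group. Klrb1c was at 0 in all groups.

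Among 7091 genes with a mean of at least 5 FPKM, likeness to a member was measured as the root mean square difference between centred log2 profiles over the 8 libraries. The nearest to Trp53 were Ranbp1 (0.0624), Nufip2 (0.0769) and Ubxn7 (0.0797). The lowest library of Ranbp1 was PP sham B at 22.9 FPKM and the highest PPK ADT B at 46.04. For Mdm2 the nearest were Pnp (0.0386), Ran (0.0431) and Aldh7a1 (0.0573). All 6 share the high PPK ADT pair with the member they resemble, and the 8 libraries fall into 4 tight pairs, so likeness rests mainly on the 4 group levels.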

How the data were processed

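FPKM values were computed by the authors and deposited as 1 table per library, made from strand-specific TruSeq libraries of Trizol-extracted total RNA, per the labels. Per the submitters' processing notes, the build was mm10 and FastQC 0.11.2 was among the tools. For the aligner, the quantifier and the annotation, the entry is "not given in the sources used here". Organoid experiments of the design text were not analysed here, and some genes are not reported here.

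All 8 tables were joined on 55335 identifiers, and 55154 received a symbol from GENCODE M21 (GRCm38). The 14000 genes that reached 1 FPKM in 2 or more libraries were tested. Limma 3.58.1 (R 4.3.3) estimated a mean for each of the 4 groups from log2(FPKM + 1), with a trended prior and two-sided tests (4 residual and 2.4 prior degrees of freedom). Python 3.11.15 with pandas 2.3.3, numpy 2.4.6 and matplotlib 3.10.9 made tables and plots. The fit was also run on simulated normal values with spreads taken from the same fit and few changed genes. That run checks the code only and does not bear on the results above. Libraries of a group correlated across genes at a Pearson r of 0.986 to 0.988.

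The 10 genes and all lists were chosen with earlier results of these data known. Besides the 10, Kmt2c, Cdkn1a, Mdm4, Cdkn2a, Trp63 and Trp73 are named. Each pathway list could add, per comparison and direction, the called gene of largest change, provided that the groups were apart and the higher one averaged 5 FPKM or more. The alternatives were a pseudocount of 0.1, testing every gene, testing only genes averaging 5 FPKM or more, scaling by median of ratios, quantile normalization, the library letter as a replicate block, fitting the compared groups alone, no trend, and leaving out each library.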

Additional observations from a re-analysis of the deposited data

Results flagged for a closer look

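Results were singled out here where the genotype effect in ADT mice differed from that in sham mice by the interaction test of limma, given as the log2 effect in ADT minus that in sham. Of the 10 genes this held for Sesn2 (1.52), Phlda3 (1.46), Mdm2 (0.77), Eda2r (0.72), Ccng1 (0.57), Bbc3 (0.44), Trp53 (0.43) and Zmat3 (0.35). In the other p53 lists 26 of 58 tested genes passed with a positive and 16 with a negative sign. Of those named in the text, it was positive for Perp (3.80), Trp63 (3.64), Zfp385a (2.74), Ppm1d (1.93), Ddit4 (1.58), Sfn (1.501), Cdkn1a (1.13), Chek2 (0.91), Cdkn2a (0.87), Ak1 (0.69), Pcna (0.55), Plk3 (0.55) and Ei24 (0.33). It was negative for Gdf15 (-2.53), Dram1 (-1.70), Gadd45a (-1.33), Pml (-1.33), Polk (-1.05), Aen (-0.58) and Btg2 (-0.48). As 52.8% of all genes passed this test, a difference of this kind is common in these data. For Ak1 the difference rests on the 1 added to FPKM, which shrinks fold changes of low values. Its means were 0.434 FPKM in PP sham and 1.36 in PPK sham, and 3.22 in PP ADT and 10.3 in PPK ADT. The ratio of PPK to PP was thus about the same in sham and ADT mice. No group holds enough libraries for a test of single outlying values.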

How the results depend on the processing

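No called member changed direction under any alternative. Counts of all genes called fell with a mean FPKM of at least 5, where fewer genes were tested, to 4918 for PPK against PP in ADT mice (from 8340), to 3933 for ADT with age in PP (from 6185), to 5056 in PPK (from 8765) and to 4476 for the difference of genotype effects (from 7395). Members called for PPK against PP in sham mice numbered 6, with fewer when 1 sham library was left out, as for all genes. Over all alternatives, members called numbered 8 to 10 in ADT mice, 6 to 8 for ADT with age in PP, 7 to 8 in PPK and 7 to 8 for the difference of effects. No shared effect of the letters A and B was visible: deviations of same-letter libraries correlated at -0.0079 to 0.057 between groups. Such values cannot show whether libraries of a letter were handled together. With the letter as a replicate block, the Zmat3 difference of effects lost its call (adjusted p = 0.0665), members called for that comparison numbered 7, and no other member's call changed. With 2 libraries a group and unknown depth, low genes such as Eda2r in PP sham rest on few reads of unknown number.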

Other observations

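In the cell death list, 2 genes were chosen after their values were seen. Pmaip1, which encodes the BH3-only protein Noxa, read 46.8 and 20.4 FPKM in the PPK ADT pair and 44.9 to 57.6 in the other 6 libraries, and limma called it in no comparison. Zfp385a, a p53 cofactor gene, was at 15.6 FPKM in PPK ADT against 0.784 in PP ADT (3.22 ± 0.078, limma adjusted p = 2.95e-07).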
